A study of Mus musculus with 31 samples.

Results

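The zinc-finger protein genes described here were all symbols in the RNA-seq table made of Zfp and a number up to that of *Zfp599*, with or without 1 trailing letter, except *Zfp42* (Rex1, a marker of naive pluripotency). The rule found 196 genes of the 15034 in the table and used no measured value. RNA-seq was performed on 12 libraries from mouse embryonic stem cells (mESCs) of 4 genotypes grown in 2i and lif, and the comparisons ask how these genes differ when Trim71 cannot bind *Ago2* mRNA, when *Ago2* is lost, and when both are changed. The WT mESCs (2 libraries) were ES-E14TG2a cells whose Trim71 carries a FLAG-tag on both alleles, and the other 3 genotypes were made from these cells, so the tag is shared by all groups. CLIPΔ mESCs (2 libraries) have both alleles of *Ago2* without the stretch of its 3′UTR that Trim71 binds, *Ago2* KO mESCs (4 libraries) were knocked out with a pair of sgRNAs in the coding region, and *Ago2* KO/CLIPΔ mESCs (4 libraries) carry both changes. The edited lines were single-cell clones, and the labels call the libraries of a genotype biological replicates without saying which clone each came from. The p-values below therefore measure only the spread between these libraries, which may be technical.

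Proteins of this group bind DNA, or less often RNA, through zinc fingers, short loops in which cysteines and histidines hold a zinc ion, and a row of fingers reads a row of bases. Many of them also carry a KRAB domain, which recruits Trim28 (KAP1) and through it the histone methyltransferase Setdb1 and HP1 proteins, so that the bound locus is silenced. In mESCs, KRAB zinc-finger proteins are known for silencing transposons and for keeping imprinted regions methylated. The genes multiplied by tandem duplication, and many lie in clusters of related copies.

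The labels were checked first. *Ago2* was at 28.2 and 21.6 TPM (a transcript level scaled for length and library size) in WT and at 27.3 and 20.3 TPM in CLIPΔ mESCs, against 1.67 to 2.29 TPM in *Ago2* KO and 1.51 to 2.87 TPM in *Ago2* KO/CLIPΔ mESCs. Of 9 naive ES cell markers, 8 were in the table, and their summed level was 9586 to 12760 TPM in the 12 libraries. The largest parts of this sum were Dppa5a (4111 to 7361 TPM) and Pou5f1 (2313 to 3262 TPM), so it says little of the others. Klf4 was at 1246 and 1076 TPM in WT and 641 to 852 TPM in the edited lines. Pou5f1 went the other way without *Ago2*, from 2672 and 2879 TPM in WT to 3084 to 3262 TPM. Summed markers of primitive endoderm were at 3.29 to 7.91 TPM (6 of 6 in the table) and those of fibroblasts at 1.59 to 3.94 TPM (4 of 4). Those of primed epiblast (3 of 4, Dnmt3b the largest part) were at 60.9 to 84.9 TPM, trophoblast (3 of 3, Krt8 the largest part) at 72.0 to 132 TPM, and 2-cell-like cells (2 of 5) at 0.844 to 3.73 TPM. The mesoderm list (3 of 3) was at 67.6 to 70.2 TPM in WT, 37.4 to 42.2 TPM in CLIPΔ, 40.3 to 69.8 TPM in *Ago2* KO, and 44.0 to 60.2 TPM in *Ago2* KO/CLIPΔ mESCs. The neural list (Nes and Pax6 of 3) was at 66.1 to 73.9 TPM in WT, 96.0 to 110.2 TPM in CLIPΔ, 26.4 to 29.6 TPM in *Ago2* KO, and 29.1 to 40.8 TPM in *Ago2* KO/CLIPΔ mESCs, nearly all of it Nes, and the part of both lists in the results was not tested. In the lines without *Ago2*, replicates 1 and 2 stood apart from replicates 3 and 4, and results that this split touches are also given within it. The deposited table holds only TPM values above 0 in every library, so the sequencing depth is unknown. In such bulk libraries, fewer cells expressing a gene and less of its RNA per cell cannot be told apart.

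All 196 genes matched a protein-coding gene of GENCODE M21 (mm10). A script found the KRAB pattern in 83 of their proteins, the SCAN pattern in 5, and a median of 10 C2H2 fingers per protein, from 0 in 5 proteins to 36 in *Zfp142*. To show what a finger looks like in sequence, the first match to the C2H2 pattern (a pair of cysteines 2 to 4 residues apart, 12 residues, and a pair of histidines 3 to 5 apart) is printed for *Zfp57*, for 2 members that were higher without *Ago2* (*Zfp296* and *Zfp574*), and for 2 that were lower (*Zfp229* and *Zfp518a*), with the codons of the zinc-binding cysteines and histidines in capitals and coordinates in mm10.
*Zfp296* (chr7:19579639-19579704, plus strand): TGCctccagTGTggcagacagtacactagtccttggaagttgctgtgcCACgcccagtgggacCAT
*Zfp574* (chr7:25079606-25079668, plus strand): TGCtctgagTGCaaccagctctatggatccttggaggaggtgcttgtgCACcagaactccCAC
*Zfp57* (chr17:37009679-37009741, plus strand): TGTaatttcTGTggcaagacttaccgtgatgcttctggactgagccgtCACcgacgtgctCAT
*Zfp229* (chr17:21745565-21745627, plus strand): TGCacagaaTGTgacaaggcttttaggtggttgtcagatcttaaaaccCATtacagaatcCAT
*Zfp518a* (chr19:40912088-40912150, plus strand): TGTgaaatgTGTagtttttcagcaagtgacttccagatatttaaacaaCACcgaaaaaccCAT
The first 3 capital codons are spaced alike in all 5, the last lies 1 codon farther in *Zfp296*, and the bases between differ in composition. The finger of *Zfp296* held 57.6% G or C and that of *Zfp518a* 34.9%. Across all fingers of a protein, the GC content was 59.0% in *Zfp574*, 57.0% in *Zfp296*, 49.7% in *Zfp57*, 42.8% in *Zfp518a*, and 37.6% in *Zfp229*. Over the longest annotated transcript, the median GC content was 45.8% for the 196 members and 50.1% for the genes of the table, and the median length was 3770 and 3276 bases. Both properties went with the differences after loss of *Ago2*, as described below.

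Most of these genes were expressed at a low level, as were most genes of the table. The median member was at 8.32 and 7.31 TPM in WT, beside 8.07 and 7.79 TPM for the median gene of the same libraries. The mean over the 12 libraries was at least 100 TPM for 10 members and under 10 TPM for 125, with a median of 6.01 TPM. The 10 highest held 44.2% to 60.2% of all member transcripts, depending on the library. Of the 196 genes, 174 had a mean of at least 1 TPM and were tested with limma on log2(TPM + 1) together with all 11287 genes at that level. The other 22, among them *Zfp423* (a regulator of neural and adipocyte precursors) and *Zfp521* (its close relative), had means of 0.0114 to 0.918 TPM and were not tested. Together the members made up 0.501% to 0.517% of the summed TPM in WT, 0.436% to 0.445% in CLIPΔ, 0.405% to 0.439% in *Ago2* KO, and 0.386% to 0.396% in *Ago2* KO/CLIPΔ mESCs.

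The highest members did not share a pattern. *Zfp296*, a factor of pluripotent cells that binds Klf4, was at 202 and 311 TPM in WT, 213 and 295 TPM in CLIPΔ, 767, 765, 862 and 873 TPM in *Ago2* KO, and 792, 751, 651 and 612 TPM in *Ago2* KO/CLIPΔ mESCs. It was below *Zfp57* and *Zfp553* among the members in WT and CLIPΔ and the highest in every library without *Ago2*. *Zfp57*, the KRAB protein that protects methylation at imprinted regions, was at 681 and 567 TPM in WT, 437 and 373 TPM in CLIPΔ, 488, 504, 378 and 401 TPM in *Ago2* KO, and 366, 388, 347 and 347 TPM in *Ago2* KO/CLIPΔ mESCs, and every library of the edited lines lay below both WT libraries. *Zfp553* was at 587 and 566 TPM in WT and between 349 and 457 TPM in the other 10 libraries. *Zfp574* was the fourth by mean level, and *Zfp513*, *Zfp598* (a ubiquitin ligase that senses collided ribosomes), *Zfp281* (a regulator of the exit from pluripotency), *Zfp280b*, *Zfp428*, and *Zfp219* followed at means of 104 to 138 TPM.

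**Figure D1:**
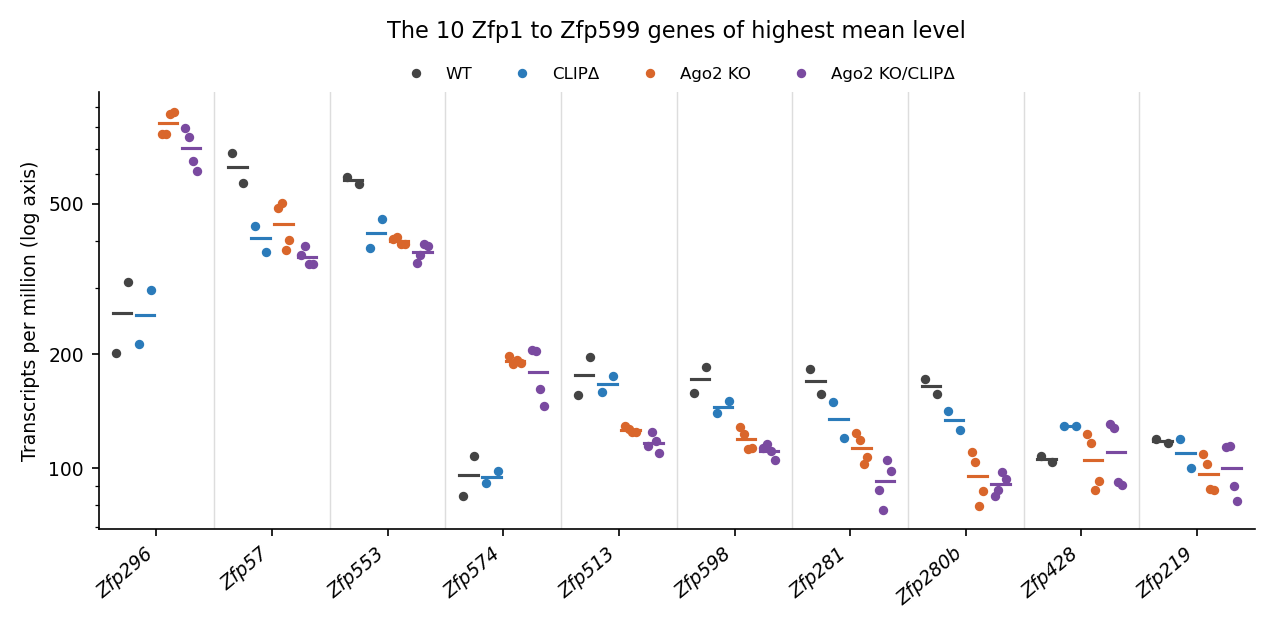
TPM (vertical log axis) of the 10 members with the highest mean level in each of the 12 libraries, with 1 point per library, a short bar at the mean of each genotype, and genotypes set apart by colour. Zfp296 and Zfp574 lie higher in all 8 libraries without Ago2 than in the 4 with it, whereas Zfp57 and Zfp553 are highest in the WT libraries.

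Loss of *Ago2* was compared with WT first. Of the 174 tested members, 116 were lower and 4 were higher in *Ago2* KO mESCs (adjusted p under 0.05), and the median log2 fold change was -0.53. Among all genes tested, 42.4% were lower and 14% were higher, with a median of -0.26, so a general downward shift on the TPM scale belonged to this comparison. With each library centred on its median, 56 members were lower and 16 higher, beside 21% and 31.5% of all genes, and the median of the members was -0.18, that of all genes 0.09. For 133 members all 4 *Ago2* KO libraries lay below both WT libraries, as they did for 50.2% of all genes.

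The largest fall was that of *Zfp518a*, which was at 23.0 and 14.5 TPM in WT and 4.07, 3.37, 2.86 and 3.00 TPM in *Ago2* KO mESCs, a log2 fold change of -2.16 (SE 0.23, adjusted p = 5.90e-05). *Zfp229*, a KRAB member on chromosome 17, was at 41.5 and 21.6 TPM in WT and 8.32, 7.40, 8.11 and 7.62 TPM in *Ago2* KO mESCs (log2 fold change of -1.81, SE of 0.29, adjusted p = 4.76e-04). The 2 WT libraries lay far apart, yet no *Ago2* KO library reached the lower of them. *Zfp292*, a large protein known as a regulator of the growth hormone gene, went from 23.8 and 19.7 TPM to 6.28, 6.14, 6.43 and 6.46 TPM (log2 fold change of -1.63, SE of 0.23, adjusted p = 1.93e-04). *Zfp62* went from 20.7 and 17.8 TPM to 6.47, 6.70, 5.30 and 5.77 TPM, with a log2 fold change of -1.52 and an SE of 0.16, and *Zfp386*, another KRAB member, from 7.87 and 5.97 TPM to 2.43, 2.26, 1.35 and 1.31 TPM, with a log2 fold change of -1.49. After median centring these 5 log2 fold changes were -1.81, -1.46, -1.28, -1.17, and -1.15, and each stayed past the threshold. Median centring does not adjust for GC content, and of these 5 only *Zfp518a* and *Zfp229* are given with GC centring below.

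Only 4 members rose. *Zfp296* had a log2 fold change of 1.70 (SE 0.18, adjusted p = 5.19e-05), and its *Ago2* KO libraries all lay well above the higher WT library. *Zfp574* was at 84.3 and 108 TPM in WT and 198, 189, 193 and 189.8 TPM in *Ago2* KO mESCs (log2 fold change of 1.01, SE of 0.14, adjusted p = 2.14e-04). *Zfp358* was at 22.0 and 28.9 TPM and 40.5, 30.5, 39.9 and 40.4 TPM, a log2 fold change of 0.56, and *Zfp524* at 13.2 and 17.5 TPM and 18.6 to 21.5 TPM, a log2 fold change of 0.39. In all 4 the groups did not overlap, but the calls of *Zfp358* and *Zfp524* were lost without WT replicate 1 (adjusted p = 0.156 and 0.362), and that of *Zfp524* also without *Ago2* KO replicate 1, 2, or 4 (adjusted p = 0.0749, 0.0591, and 0.0680). None of the 4 holds the KRAB pattern.

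**Figure D2:**
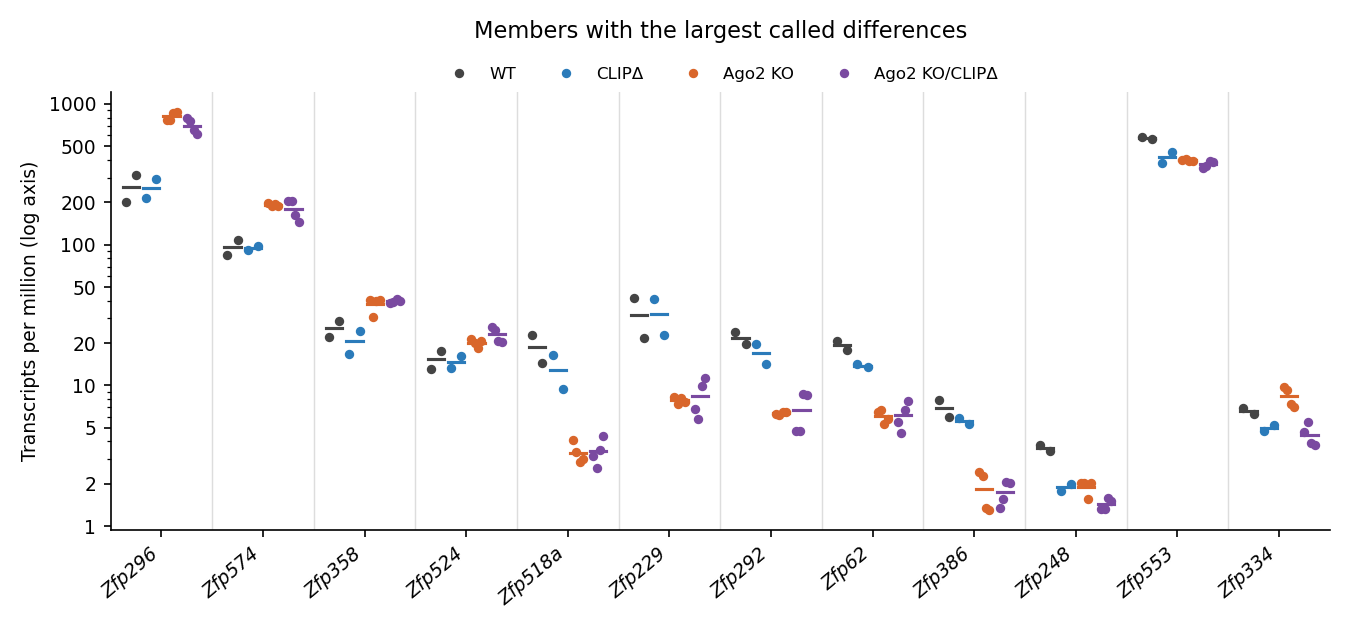
TPM (vertical log axis) in the 12 libraries for the members with the largest differences past the threshold, with 1 point per library and a short bar at the mean of each genotype. From the left, 4 members rose and 5 fell in Ago2 KO against WT, Zfp248 and Zfp553 were the 2 called in CLIPΔ against WT, and Zfp334 was the only member called in Ago2 KO/CLIPΔ against Ago2 KO.

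The second comparison of *Ago2* loss, *Ago2* KO/CLIPΔ against CLIPΔ mESCs, used 6 other libraries. It called 91 members lower and 5 higher, with a median log2 fold change of -0.39, beside 42.1% lower, 12.8% higher, and a median of -0.25 for all genes. With median centring, 48 members were lower and 19 higher (21% and 30.1% of all genes), and the member median was -0.06. For 104 members all 4 *Ago2* KO/CLIPΔ libraries lay below both CLIPΔ libraries, against 48.3% of all genes. Called lower in both comparisons were 87 members, which is 75% of the 116 and 95.6% of the 91, beside 83.1% and 83.6% for the genes called lower in the whole table, and 4 were higher in both. No member was called in opposite directions (33 of all genes were), and 49 were called in neither (3796 of all genes). Across the 174 members the log2 fold changes of the 2 comparisons had a Pearson correlation of 0.893, and across all 11287 genes of 0.859. These are correlations across genes, which are not independent replicates and share transcript composition.

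Here *Zfp229* had the largest fall, from 41.5 and 22.9 TPM in CLIPΔ to 6.75, 5.79, 9.89 and 11.2 TPM in *Ago2* KO/CLIPΔ mESCs (log2 fold change of -1.80, SE of 0.29, adjusted p = 5.77e-04). It was followed by *Zfp518a* at -1.63, *Zfp131* at -1.39, *Zfp386* at -1.28, and *Zfp445* at -1.28 on the log2 scale. *Zfp131* is a transcription factor with a BTB domain, and its CLIPΔ libraries were at 25.8 and 16.2 TPM against 6.39, 6.07, 8.12 and 8.46 TPM in *Ago2* KO/CLIPΔ mESCs. *Zfp445*, a KRAB protein that acts with *Zfp57* at imprinted regions, was at 57.3 and 48.9 TPM in WT, 49.2 and 41.9 TPM in CLIPΔ, 21.4, 23.7, 16.6 and 17.9 TPM in *Ago2* KO, and 16.5, 16.5, 19.9 and 19.9 TPM in *Ago2* KO/CLIPΔ mESCs. Every library without *Ago2* lay below every library with it. The 5 members that rose were *Zfp296* at 1.47, *Zfp358* at 0.94, *Zfp574* at 0.90, *Zfp444* at 0.63, and *Zfp524* at 0.61. *Zfp444* was at 7.47 and 13.9 TPM in CLIPΔ and 15.7, 14.9, 17.7 and 17.3 TPM in *Ago2* KO/CLIPΔ mESCs, and without CLIPΔ replicate 1 its difference became 0.22 (adjusted p = 0.485). Its call was also lost without *Ago2* KO/CLIPΔ replicate 1, 3, or 4 (adjusted p = 0.0534, 0.0660, and 0.0617), and that of *Zfp524* without CLIPΔ replicate 1 (adjusted p = 0.0602).

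**Figure D3:**
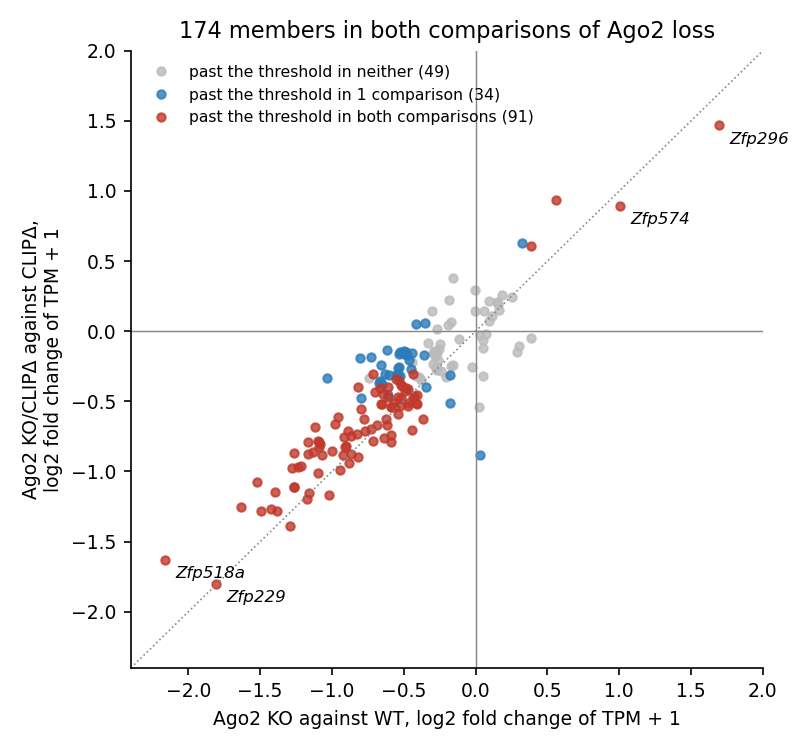
Log2 fold change of TPM + 1 for the 174 tested members in Ago2 KO against WT (horizontal) and in Ago2 KO/CLIPΔ against CLIPΔ (vertical), 1 point per gene, coloured by the number of comparisons past the threshold, with a dotted line of equal change. Most points lie below 0 on both axes, and Zfp296 and Zfp574 stand apart at the upper right.

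The size of the difference went with base composition, in the members as in all genes. When all genes with an annotated transcript were put into 10 equal bins by GC content, the median log2 fold change in *Ago2* KO against WT went from -0.72 in the lowest bin (30.97% to 41.8% GC) to 0.22 in the highest, and in *Ago2* KO/CLIPΔ against CLIPΔ from -0.71 to 0.21. The lowest bin held 51 of the 174 members, with medians of -0.73 and -0.69. In the second bin, 20 members had medians of -0.56 and -0.53 beside -0.59 and -0.59 for all genes, whereas from the fourth bin on the members lay below all genes in *Ago2* KO against WT, at -0.60 beside -0.37 in the fourth, -0.52 beside -0.28 in the fifth, and -0.39 beside 0.04 in the eighth (6 members). In the highest bin 15 members had medians of -0.02 and -0.25 beside 0.22 and 0.21. Spearman's correlation of GC content with the log2 fold change was 0.51 across 11218 genes and 0.54 across the members in *Ago2* KO against WT, and 0.53 and 0.48 in the other comparison. Of the 44 members with the least GC, all 44 were called lower in *Ago2* KO and 32 (72.7%) in *Ago2* KO/CLIPΔ mESCs, beside 42.4% and 42.1% of all genes. Of the 44 with the most, 16 and 14 were lower (36.4% and 31.8%). In this group 4 and 5 were higher (9.09% and 11.4%, beside 14% and 12.8% of all genes). Length went the other way, with Spearman's correlations of -0.35 and -0.29 across all genes and of -0.28 and -0.22 across the members.

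Centring each library within the 10 bins of GC content changed the balance of calls. In *Ago2* KO against WT, 51 members were then lower and 31 higher, beside 19.1% and 29.3% of all genes. In *Ago2* KO/CLIPΔ against CLIPΔ, 34 were lower and 44 higher, beside 17.8% and 27% of all genes, and the member median turned from -0.39 to 0.04. Centring within 10 bins of length left 50 lower and 19 higher in the first comparison (20.1% and 27.6% of all genes) and 44 lower and 22 higher in the second (20.7% and 27%). Under GC centring, *Zfp518a* and *Zfp229* remained lower at -1.35 and -0.99 in *Ago2* KO against WT, and *Zfp296* and *Zfp574* remained higher at 1.51 and 0.93, all past the threshold. *Zfp57*, in contrast, went from -0.50 to 0.07 (adjusted p = 0.717), and its call was also lost under median centring and without WT replicate 1 (adjusted p = 0.375 and 0.0941). Centring by GC content and by length was added after the data were seen. The labels do not say whether the libraries with and without *Ago2* were prepared together, so genotype and preparation cannot be told apart here.

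**Figure D4:**
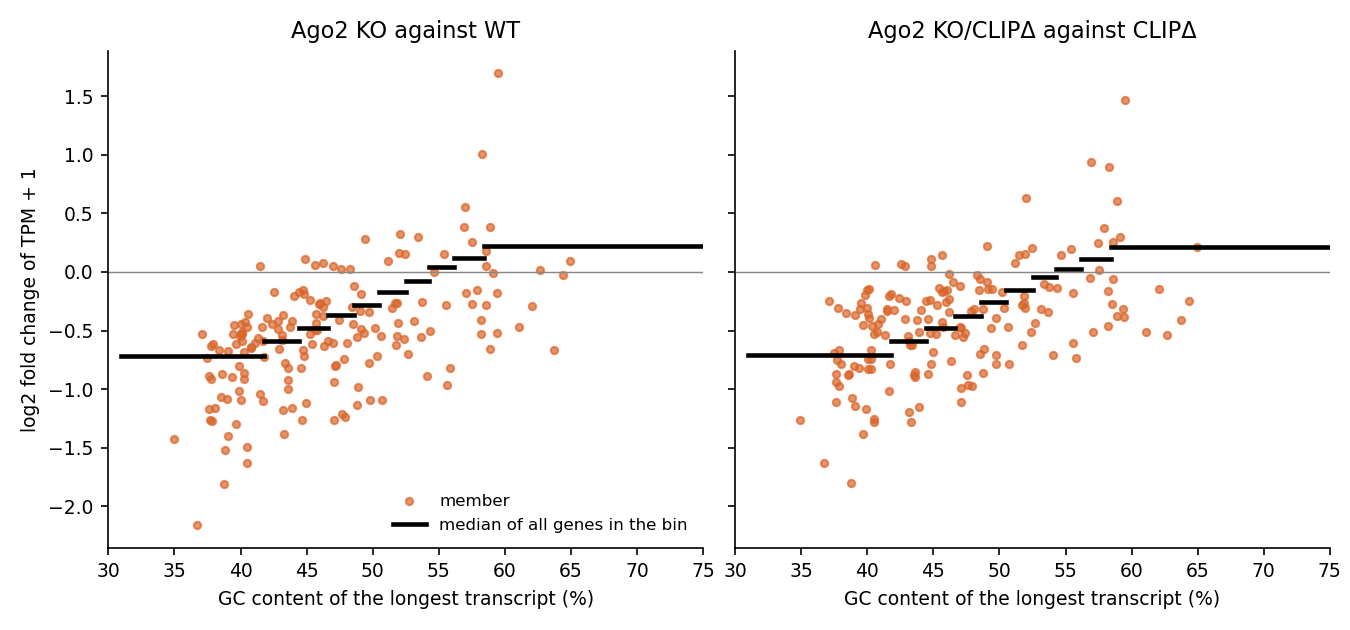
Log2 fold change of TPM + 1 against the GC content of the longest transcript (percent) for the 174 tested members (orange points) in both comparisons of Ago2 loss, with black bars at the median of all genes in each of 10 bins by GC content. The last bar ends at the edge of the axis, and in the left panel the bars and the points both rise, but from the fourth bin on most points lie below the bars.

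Deletion of the Trim71-binding region was accompanied by few calls among the members. In CLIPΔ against WT mESCs, 2 members were lower and none was higher, beside 0.806% and 1.46% of all genes, and 20 members had an unadjusted p under 0.05, beside 12.9% of all genes. The median log2 fold change was -0.16 for the members and -0.05 for all genes, and 134 of the 174 members were below 0 (77.0%, beside 60.3% of all genes). *Zfp248*, a KRAB member, was at 3.77 and 3.40 TPM in WT and 1.76 and 2.01 TPM in CLIPΔ mESCs (log2 fold change of -0.67, SE of 0.13, adjusted p = 0.0198), and *Zfp553* was at 587 and 566 TPM and 382 and 457 TPM (log2 fold change of -0.46, SE of 0.10, adjusted p = 0.0372). The groups of both genes did not overlap, yet with 2 libraries on each side both calls were lost without WT replicate 1 (adjusted p = 0.0749 and 0.103) and without CLIPΔ replicate 1 (adjusted p = 0.113 and 0.189), that of *Zfp553* also without WT replicate 2 (adjusted p = 0.0698). Both were also lost in a fit of these 4 libraries alone (adjusted p = 0.782 and 0.886), which called no gene of the table. With the replicate number as a block, that fit lost both too (adjusted p = 0.0681 and 0.0891) and called 1 other member. Under median, GC, and length centring *Zfp553* missed the threshold (adjusted p = 0.0644, 0.0813, and 0.102), while *Zfp248* stayed past it. Without WT replicate 1 or CLIPΔ replicate 1 no member was called. *Zfp57* had a log2 fold change of -0.62 (SE 0.15, adjusted p = 0.0598), which missed the threshold. Against the same WT libraries, the differences in *Ago2* KO mESCs were -0.66 for *Zfp248*, -0.53 for *Zfp553*, and -0.50 for *Zfp57*.

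*Ago2* KO/CLIPΔ against *Ago2* KO mESCs asked what the deletion does where *Ago2* is lost. A single member was lower and none higher, beside 0.602% and 0.275% of all genes, with 9 members at an unadjusted p under 0.05 (11% of all genes). The called member was *Zfp334*, a KRAB gene, at 9.75, 9.35, 7.34 and 6.98 TPM in *Ago2* KO and 4.65, 5.53, 3.89 and 3.75 TPM in *Ago2* KO/CLIPΔ mESCs (log2 fold change of -0.78, SE of 0.13, adjusted p = 0.0178). Its difference was -0.80 within replicates 1 and 2 and -0.76 within replicates 3 and 4. Its call was lost without *Ago2* KO replicate 1 or 2 (adjusted p = 0.0850 and 0.0779) and without *Ago2* KO/CLIPΔ replicate 3 or 4 (adjusted p = 0.0764 and 0.0695). *Zfp334* was at 6.93 and 6.32 TPM in WT and 4.74 and 5.27 TPM in CLIPΔ mESCs. The members as a set went in opposite directions within the 2 pairs of replicates. In replicates 1 and 2 their median difference was -0.21, with 21 of 174 above 0, and in replicates 3 and 4 it was 0.17, with 133 above 0, while the medians of all genes were -0.13 and 0.05. The pooled median of -0.02 thus averaged 2 unlike pairs. For loss of *Ago2* only the libraries without *Ago2* could be split, since WT and CLIPΔ have 2 libraries each. Both pairs were therefore set against the same 2 libraries, which is unlike the comparison within pairs above. The member medians were -0.47 for replicates 1 and 2 and -0.60 for replicates 3 and 4 against WT, and -0.50 and -0.29 against CLIPΔ.

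The interaction tests whether the deletion changed a gene differently with and without *Ago2*. No member passed in limma, beside 0.0975% of all genes with a higher and 0.549% with a lower interaction, and 11 members had an unadjusted p under 0.05, beside 8.01% of all genes. The median interaction was 0.13 for the members and 0.005 for all genes. Of the 174 members, 49 were below 0 (28.2%, beside 49.1% of all genes). The cause of this shift was not tested.

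Members with and without the KRAB pattern were compared by their counts. Of 71 tested KRAB members, 56 were lower (78.9%, beside 42.4% of all genes) and none higher in *Ago2* KO against WT, with a median of -0.54. Of 103 members without the pattern, 60 were lower and 4 higher, with a median of -0.52. In *Ago2* KO/CLIPΔ against CLIPΔ, 37 of the 71 and 54 of the 103 were lower (52.1% and 52.4%, beside 42.1% of all genes), and the medians were -0.39 and -0.40. With median centring, 24 KRAB members were lower and 3 higher in the first comparison and 22 and 3 in the second, and 32 and 13 of the others, then 26 and 16. Of all genes, 21% were then lower and 31.5% higher in the first comparison, and 21% and 30.1% in the second. With GC centring, 16 KRAB members were lower and 15 higher in the first comparison and the median turned to 0.07, and 9 were lower and 22 higher in the second with a median of 0.14 (all genes 19.1% and 29.3%, then 17.8% and 27%), while the others had 35 lower and 16 higher (median -0.12) and 25 and 22 (median -0.05). The KRAB members had a median GC content of 43.3% and the others of 48.6%. The number of fingers went with no order of the medians in *Ago2* KO against WT, which were -0.53 for the 43 members with up to 5 fingers, -0.54 for the 63 with 6 to 11, and -0.52 for the 68 with 12 or more. The 136 tested genes with a higher Zfp number had a median of -0.70 in *Ago2* KO against WT and of -0.66 in *Ago2* KO/CLIPΔ against CLIPΔ, at a median GC content of 42.5%.

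Trim28, Setdb1, the HP1 genes, and further chromatin and silencing genes were followed with a list. It had 26 genes in the table, all of them tested, and not all are known partners of KRAB proteins. In *Ago2* KO against WT 19 were lower (73.1%, beside 42.4% of all genes) and none higher, with a median log2 fold change of -0.60. With median centring 11 were lower and 5 higher (all genes 21% and 31.5%), and with GC centring 7 and 6 (all genes 19.1% and 29.3%). Trim28 itself, the corepressor that the KRAB domain binds, was at 3436 and 3814 TPM in WT and 5014, 5016, 4251 and 4118 TPM in *Ago2* KO mESCs (log2 fold change of 0.34, SE of 0.20, adjusted p = 0.167), and it was called higher with median centring (0.69, adjusted p = 0.032) and length centring (0.77, adjusted p = 0.0246) but not with GC centring (0.16, adjusted p = 0.458). Among the genes past the threshold were Setdb1 (the methyltransferase) at -0.53, the HP1 genes Cbx1, Cbx3, and Cbx5 at -0.83, -1.01, and -0.61, the chromatin remodellers Chd3, Chd4, Atrx, and Smarcad1 at -0.67, -0.65, -1.92, and -0.59, and the HUSH genes Mphosph8, Fam208a, and Pphln1 at -1.57, -1.08, and -0.83. Morc2a, Morc3, Trim24, Trim33, Atf7ip, Hdac2, and Dnmt1 also passed, at -0.72, -0.92, -0.68, -0.83, -0.40, -0.34, and -0.30. Under GC centring the falls that remained past the threshold were those of Atrx (-1.10), Mphosph8 (-0.91), Chd3 (-0.61), Chd4 (-0.49), Morc2a (-0.36), Fam208a (-0.27), and Morc3 (-0.26). Setdb1 and the HP1 genes were then not called (Setdb1 -0.04, Cbx1 -0.26, Cbx3 -0.20, Cbx5 0.04), and Smarcad1 (0.22) and Hdac2 (0.32) were called higher. In *Ago2* KO/CLIPΔ against CLIPΔ 19 were lower too (73.1%, beside 42.1% of all genes, median -0.68), with Hnrnpk (-0.30) in and Dnmt1 (-0.14) out. Median centring left 15 lower and 3 higher there (all genes 21% and 30.1%), and GC centring 9 and 4 (all genes 17.8% and 27%). In CLIPΔ against WT 1 of the 26 passed (3.85% higher, beside 1.46% of all genes). This was Chd3, which was higher at 29.3 and 31.4 TPM than in WT at 18.2 and 23.3 TPM (log2 fold change of 0.53, SE of 0.12, adjusted p = 0.046).

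By position, 68 of the 196 members lay in 9 clusters, runs of at least 4 members with starts at most 500 kb apart, and 53 lay on chromosome 7. The largest cluster (chr7:24081924-25227507, mm10, 14 members) held 12 tested members, 4 of them lower and 1 higher in *Ago2* KO against WT, with a median of -0.29. These are 33.3% and 8.33%, beside 42.4% and 14% of all genes, whose median was -0.26. The range of this cluster ran from *Zfp111* at -0.78 and *Zfp180* at -0.77 to *Zfp526* at 0.26 and *Zfp574* at 1.01. In the second (chr7:29768552-30169750, 13 members, all tested), 8 were lower (61.5%), from *Zfp74* at -1.16 and *Zfp146* at -1.13 to *Zfp27* at 0.03 and *Zfp82* at 0.07, with a median of -0.44. This cluster holds *Zfp568*, which silences a placental promoter of Igf2 in the embryo, at 98.1 and 72.0 TPM in WT and 45.3, 46.6, 40.6 and 41.0 TPM in *Ago2* KO mESCs. The third (chr13:67194506-67792512, 11 members) had 7 tested members, 5 of them lower (71.4%), from *Zfp65* at -1.40 and *Zfp456* at -0.67 to *Zfp58* at 0.05 and *Zfp87* at 0.11. Outside clusters, 115 tested members ran from -2.16 to 1.70. The lowest cluster median, -1.07 in *Ago2* KO against WT and -0.87 in *Ago2* KO/CLIPΔ against CLIPΔ, was that of the 5 tested genes at chr17:21008903-21769342 around *Zfp229*, which also had the lowest median GC content of the 9 clusters (38.7%). Under GC centring the medians in *Ago2* KO against WT were above 0 for 7 of the 9 clusters, 0.05 in the second and 0.19 in the third among them, and -0.25 in the one around *Zfp229*. Copies in such clusters that are near-identical can share reads, which makes the value of a single copy uncertain. How alike the members of a cluster are was not measured.

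**Figure D5:**
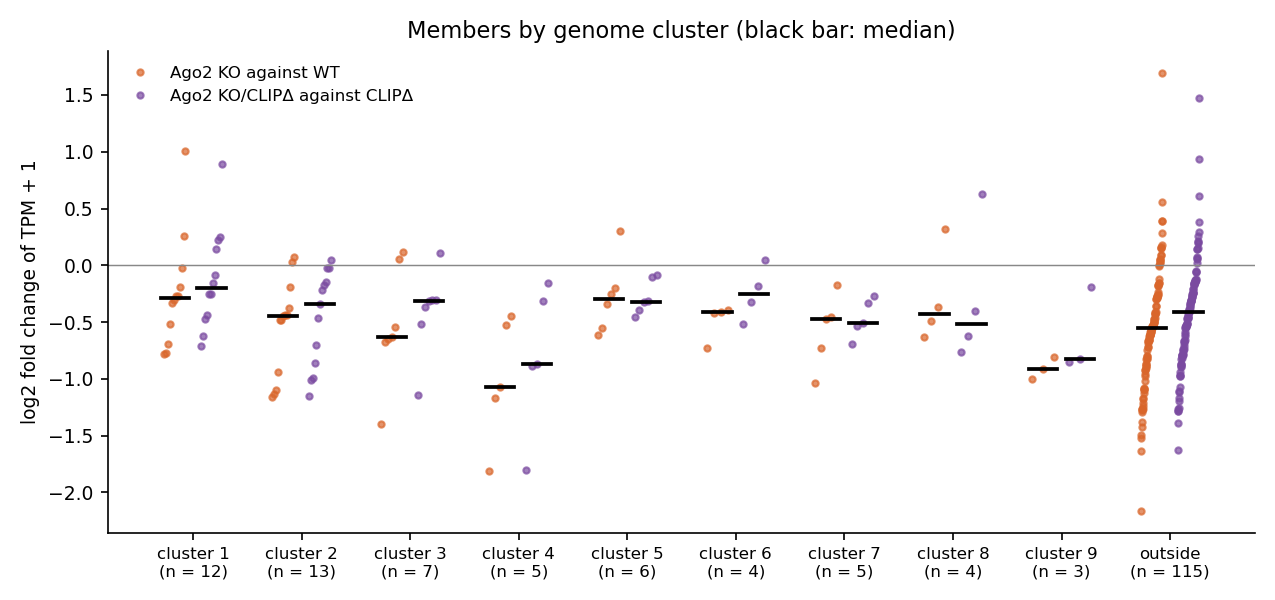
Log2 fold change of TPM + 1 for the tested members of each genome cluster, numbered by falling size, and for those outside clusters, in Ago2 KO against WT (orange) and Ago2 KO/CLIPΔ against CLIPΔ (purple), with 1 point per gene, sorted by value, and a black bar at the median. All medians lie below 0, and those of cluster 4, around Zfp229, are the lowest at -1.07 and -0.87.

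Of the 29 listed members with a known function, 26 were in the table and 24 were tested. In *Ago2* KO against WT 19 were lower (79.2%, beside 42.4% of all genes) and 1 was higher (*Zfp296*), with a median log2 fold change of -0.61. After median centring 11 were lower and 2 higher (all genes 21% and 31.5%), and after GC centring 11 and 5 (19.1% and 29.3%). Against CLIPΔ, 17 were lower and 1 was higher in *Ago2* KO/CLIPΔ mESCs (70.8% and 4.17%, beside 42.1% and 12.8% of all genes). Among chromatin and transcription regulators, *Zfp281* was at 183 and 157 TPM in WT and 124, 119, 103 and 107 TPM in *Ago2* KO mESCs (-0.58, not called without WT replicate 1 at adjusted p = 0.0533), and *Zfp217*, which works with the demethylase Lsd1, at 34.4 and 35.8 TPM and 23.4, 22.0, 22.0 and 22.2 TPM (-0.62). *Zfp462*, a protein of heterochromatin, was lower in all 10 libraries of the edited lines than in WT, at 10.5 and 9.34 TPM in WT and 7.10 and 5.99 TPM in CLIPΔ mESCs, although its difference in CLIPΔ missed the threshold (-0.54, adjusted p = 0.142). *Zfp148*, a factor that binds GC-rich promoters, had log2 fold changes of -1.02 and -1.17 in the 2 comparisons of *Ago2* loss, and *Zfp143*, which binds promoters at chromatin loops, -0.15 and -0.24, which did not pass.

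Several listed members act on RNA. *Zfp106*, an RNA-binding protein, was at 116 and 113 TPM in WT, 111 and 93.3 TPM in CLIPΔ, 48.6, 48.2, 45.2 and 45.6 TPM in *Ago2* KO, and 38.5, 41.8, 54.4 and 54.0 TPM in *Ago2* KO/CLIPΔ mESCs, so that no library without *Ago2* came near the 4 with it. Its log2 fold changes were -1.27 and -1.11, and they were -0.77 and -0.70 under GC centring. *Zfp326*, part of a complex that couples RNA polymerase II elongation to splicing, had -0.87 and -0.87, which became -0.05 and -0.10 under GC centring and missed the threshold. *Zfp36* (tristetraprolin), which marks AU-rich mRNAs for decay and has fingers of another type, was at 82.0 and 37.0 TPM in WT and 26.9, 30.2, 27.9 and 32.9 TPM in *Ago2* KO mESCs (-0.89), and without WT replicate 1 its difference was -0.32 (adjusted p = 0.212). In *Ago2* KO/CLIPΔ against CLIPΔ its difference was -0.71, and it was not called without CLIPΔ replicate 1 (adjusted p = 0.331) or *Ago2* KO/CLIPΔ replicate 1 or 2 (adjusted p = 0.0544 and 0.0547). *Zfp598* had -0.52 and -0.38, *Zfp346*, which binds double-stranded RNA, -0.57 and -0.51, and *Zfp207*, a kinetochore protein, -0.59 and -0.79, of which the first turned to 0.23 under GC centring and was not called without WT replicate 1 (adjusted p = 0.187). *Zfp451*, a SUMO ligase, turned from -0.61 and -0.40 to 0.21 and 0.37 under GC centring, past the threshold in the other direction, and the second was not called without either CLIPΔ library or without *Ago2* KO/CLIPΔ replicate 1 or 2 (adjusted p = 0.0575 to 0.114).

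The remaining listed members were lower or did not pass. *Zfp260* had log2 fold changes of -1.10 in *Ago2* KO against WT and -1.01 in *Ago2* KO/CLIPΔ against CLIPΔ, *Zfp318* -1.12 and -0.68, and *Zfp592* -0.43 and -0.30, all past the threshold. The second difference of *Zfp318* was not called without CLIPΔ replicate 2 (adjusted p = 0.0903), the first of *Zfp592* not without WT replicate 1 (adjusted p = 0.112), and the second not without any 1 of CLIPΔ replicate 1 and the 4 *Ago2* KO/CLIPΔ libraries (adjusted p = 0.0577 to 0.499). *Zfp503*, a regulator of striatal neurons, passed in the first (-0.66) and not in the second (-0.37), and *Zfp335*, which works in a histone methyltransferase complex, passed in the second (-0.31) and not in the first (-0.18). *Zfp110*, which binds the p75 neurotrophin receptor, had -0.25 and -0.09, and *Zfp384* 0.15 and 0.21, with no call in either. The call of *Zfp503* was lost without WT replicate 1 (adjusted p = 0.131), and that of *Zfp335* without CLIPΔ replicate 1 (-0.13, adjusted p = 0.466) and without *Ago2* KO/CLIPΔ replicate 1, 3, or 4.

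Because Ago2 carries microRNAs, the longest annotated 3′UTR of each member was searched for the 8-base sites of let-7 and of the miR-291a-3p and miR-302 family, the latter abundant in mESCs. The mature sequences (RefSeq, GRCm38.p6) are shown with the seed, bases 2 to 8, in capitals, and miR-291a-3p and miR-302b-3p share theirs.
let-7g-5p (chr9:106178846-106178867, plus strand): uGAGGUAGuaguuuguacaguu
miR-291a-3p (chr7:3218968-3218989, plus strand): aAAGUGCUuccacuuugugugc
miR-302b-3p (chr3:127545275-127545297, plus strand): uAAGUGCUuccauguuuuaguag
The sites searched on the transcript strand were CTACCTCA for let-7 and AGCACTTA for miR-291a-3p, and the following show, in capitals, 2 matches to each site with their flanking bases (mm10), in members chosen after their values were seen.
*Zfp280b* (chr10:76042335-76042362, plus strand): tgcatggctgCTACCTCActcgtggtta
*Zfp12* (chr5:143245313-143245340, plus strand): cgcagctgtcCTACCTCAccgtgcatca
*Zfp148* (chr16:33498236-33498263, plus strand): gttgacatagAGCACTTAgaattaatct
*Zfp507* (chr7:35772800-35772827, minus strand): cagtttcataAGCACTTAtttaatcagg
Of 9 tested members with the let-7 site, 4 were lower (44.4%, beside 49.1% of all genes with the site and 42.4% of all genes) and none was higher in *Ago2* KO against WT, with a median of -0.49, and the 464 tested genes with the site had a median of -0.34. *Zfp280b* was at 172 and 157 TPM in WT and 111, 104, 79.4 and 87.4 TPM in *Ago2* KO mESCs, and *Zfp473*, with 2 sites, had a log2 fold change of 0.05 and *Zfp12* of -0.72. Of 13 tested members with the miR-291a-3p site, 11 were lower (84.6%, beside 57.7% of all genes with the site) and none higher, with a median of -0.61, while 381 genes with the site had -0.46 and the whole table -0.26. *Zfp280d* at -1.27, *Zfp367* at -1.26, and *Zfp507* at -1.24 were the lowest of the 13 (named after their values were seen), whose median GC content was 41.8%. Against CLIPΔ, 4 of 9 and 10 of 13 were lower in *Ago2* KO/CLIPΔ mESCs (44.4% and 76.9%), with none higher. Of all genes with the let-7 site 46.1% were lower there, of those with the miR-291a-3p site 54.6%, and of all genes 42.1%. With GC centring the members with the let-7 site had medians of -0.10 and 0.04 in the 2 comparisons, and those with the miR-291a-3p site of -0.07 and 0.28, with 4 lower and 3 higher in the first (all genes 19.1% and 29.3%). In CLIPΔ against WT no member with either site was called, and the medians were -0.21 and -0.11, beside -0.16 for all members. All genes with the let-7 site had a median of -0.08 there, with 0.647% lower and 0.862% higher. Those with the miR-291a-3p site had -0.06, with 1.05% lower and 0.525% higher. The whole table had -0.05, with 0.806% lower and 1.46% higher. A match is a description of the sequence and does not show that the site is used.

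The Trim71 CLIP-seq list held 498 peaks in 439 genes. None was assigned to a member, and none lay on the same strand within the span of a member gene. The only peaks on zinc-finger genes named Zfp and a number were intronic, in *Zfp664* (1705 reads) and *Zfp42* (1069 reads), and neither gene is a member. The read numbers of this list are pooled over the immunoprecipitations, so no comparison was made.

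At the start sites, 158 of the 196 members had a RefSeq promoter sequence. In the 250 bases before the start, the members held a median of 12 CG pairs, against 15 for the 11678 genes of the table with a promoter and 6 for all 32851 promoters. At least 10 pairs were present in 63.3% of the members, 70.6% of the table, and 37.8% of all promoters. Spearman's correlation of promoter GC content with the log2 fold change in *Ago2* KO against WT was 0.12 across 141 tested members, lower than the 0.54 for GC content of the transcript across 174.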

How the data were processed

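RNA-seq was analysed in 12 libraries of 4 genotypes (2 WT, 2 CLIPΔ, 4 *Ago2* KO, 4 *Ago2* KO/CLIPΔ), grouped by GEO's labels. Columns of the table coded d3 were read as CLIPΔ. The TPM values were made by the authors, who aligned reads with HISAT2 2.1.0 to mm10 and counted them with HTSeq on the longest transcript of each gene. CASAVA 1.4 is also named in the submitters' processing notes. The deposited table holds only genes above 0 in every library, so genes lost in 1 genotype are not seen, and sequencing depth is unknown. TPM values are shares of a library, so a gain in some genes lowers the rest. The Trim71 CLIP-seq list gives read counts per peak that the authors pooled over both immunoprecipitations after Bowtie, STAR, and CLIPper.

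Values were analysed as log2(TPM + 1) with limma 3.58.1 in R 4.3.3 (4 genotype means over all 12 libraries, trended variance, Benjamini-Hochberg adjustment across 11287 genes averaging 1 TPM or more, threshold 0.05). The fit was tested on simulated data first. Fold changes on this scale understate the changes of low genes. Annotation was from GENCODE M21 (mm10). GC content and length came from the longest transcript of a gene, and positions from the span of the gene. KRAB and SCAN patterns counted if found in any transcript, and the number of fingers was the highest of any. Sites were searched in the longest 3′UTR, and printed fingers and their GC content came from the longest coding sequence. Sequences were read with Python 3.11.15, pandas 2.3.3, and Biopython 1.88. KRAB was called by a motif search that misses divergent domains, and miRNA and promoter sequences were from RefSeq (GRCm38.p6). The named genes were, in each comparison, the 5 highest and 5 lowest called members whose groups did not overlap, 29 characterised members, the 10 highest by mean TPM, the extremes of the 3 largest clusters, and KRAB silencing genes past the threshold, and names outside this rule are marked. 1 gene that the rule names is not reported here. The members and lists were chosen with earlier results of these data known. Alternatives were the pseudocount (0.1), no filter, only the groups compared, a replicate block, median centring, replicates 1 and 2 only, and leaving out each library. GC centring, length centring, and the block within 2 groups were added after seeing the data. Deviations from the genotype mean correlated between *Ago2* KO and *Ago2* KO/CLIPΔ libraries of the same replicate number (Pearson's r of 0.433, 0.320, 0.420, and 0.360 across genes), so these numbers were taken as pairs. This pairing comes from the data, since the labels give only the number. Libraries of different numbers were not compared in this way, so the correlations do not show that a number marks a pair. The small-RNA table was not used.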

Additional observations from a re-analysis of the deposited data

Results flagged for a closer look

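The values of the named members in the groups of 4 libraries were checked for a library far from the other 3, which made 84 checks, and chance alone flags about 1 in 20. The 3 such libraries were all in *Ago2* KO mESCs. *Zfp358* was at 30.5 TPM in replicate 2 and between 39.9 and 40.5 TPM in the other 3 libraries. *Zfp217* was at 23.4 TPM in replicate 1 and between 22.0 and 22.2 TPM in the others, and *Zfp248* was at 1.57 TPM in replicate 3 and between 2.02 and 2.04 TPM in the others.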

How the results depend on the processing

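Of the differences of named members, 700 kept their direction and side of the threshold under an alternative, 124 kept the direction but missed the threshold, and 14 turned. In *Ago2* KO against WT these were *Zfp57* (0.072), *Zfp207* (0.23), *Zfp281* (0.075), and *Zfp451* (0.21) under GC centring, and *Zfp451* (0.14), *Zfp462* (0.15), and *Zfp592* (0.32) under length centring. In *Ago2* KO/CLIPΔ against CLIPΔ they were *Zfp281* (0.15) and *Zfp451* (0.37) under GC centring, *Zfp335* (0.092), *Zfp451* (0.21), and *Zfp592* (0.30) under length centring, and *Zfp335* (0.020) and *Zfp592* (0.029) under median centring. By construction, centring takes out a shift shared by all genes of a library or bin.

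The number of members called in CLIPΔ against WT went from 2 to 4 without the filter, to 0 in a fit of these 4 libraries or of replicates 1 and 2, to 1 under median or length centring, and to between 0 and 3 with 1 library left out. In *Ago2* KO against WT, 120 became 72 under median centring and 69 under length centring, and lay between 84 and 119 with 1 library left out. In *Ago2* KO/CLIPΔ against *Ago2* KO, 1 became 0 in replicates 1 and 2 and 0 to 1 with 1 library left out, and under length centring the 1 called member was another one, which was higher. The 96 members of *Ago2* KO/CLIPΔ against CLIPΔ stayed between 66 and 106, and the interaction called 0 members throughout. Counts over all genes moved too. In CLIPΔ against WT, 256 genes were called in the main fit and 510 without the filter. The fit of its 4 libraries alone called 0, that of replicates 1 and 2 called 92, median centring 288, and length centring 280. In *Ago2* KO against WT, 42.4% of all genes were lower and 14% higher in the main fit. Median centring left 21% and 31.5%, and length centring 20.1% and 27.6%. The cause of these changes was not tested.

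With the replicate block over all 12 libraries, 3, 129, 1, and 100 members were called in CLIPΔ against WT, *Ago2* KO against WT, *Ago2* KO/CLIPΔ against *Ago2* KO, and *Ago2* KO/CLIPΔ against CLIPΔ, and 0 in the interaction. With the block and only the 2 groups compared, the counts were 1, 70, 3, and 84, and the 1 in CLIPΔ against WT was neither *Zfp248* nor *Zfp553*. Of all genes, 352 were called in CLIPΔ against WT with the first block and 360 with the second, beside 256 in the main fit. The block over all libraries changed 2 calls of named members, *Zfp335* and *Zfp592* in *Ago2* KO/CLIPΔ against CLIPΔ (adjusted p = 0.0777 and 0.0773). Same-numbered WT and CLIPΔ libraries deviated together (r of 0.715), those of WT and *Ago2* KO (0.06 and -0.15) and of CLIPΔ and *Ago2* KO/CLIPΔ (-0.18 and 0.23) did not, and these groups share only a number. Without read counts, the depth behind low TPM values could not be judged.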
